A study of Caenorhabditis elegans with 12 samples.

Results

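The REF-1 family of *Caenorhabditis elegans* consists of 6 genes, *ref-1*, *hlh-25*, *hlh-26*, *hlh-27*, *hlh-28* and *hlh-29*, of 18217 genes named by the probe annotation. On the Affymetrix array used here they were read by 4 probe sets of 22548 that are not controls, and these are all the probe sets that the probe annotation pairs with a family member, alone or together with another gene. *ref-1* (probe set 193898_at) and *hlh-26* (183674_at) each had a probe set of their own. *hlh-25* and *hlh-27* shared 1 probe set (184961_s_at), as did *hlh-28* and *hlh-29* (179991_s_at), so that the members of each pair cannot be told apart in these data. The samples were embryos of strain KM267, in which a heat shock promoter drives *hlh-1*, the gene of the myogenic bHLH factor HLH-1 (CeMyoD). Each of the 12 arrays was hybridized with RNA of about 80 embryos that had 1 or 2 cells when they were picked. Embryos of the 0 h group were taken before any heat pulse, and those of the other groups were incubated for 60 min, heated to 34 °C for 30 min and taken 2, 4 or 6 h later. There were 3 independent samples, A, B and C, at each of the 4 times. The same strain without a pulse at later times, or another strain with a pulse, is not among the arrays analysed here, so that a response to HLH-1, a response to heat and the passage of development cannot be told apart here.

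Notch signaling acts between neighboring cells. A ligand of the DSL class on a cell binds a receptor on the next (GLP-1 or LIN-12), proteases cut the receptor, and its intracellular part enters the nucleus and joins the DNA-binding protein LAG-1 and the coactivator SEL-8 at target genes. The REF-1 family genes are targets of this kind in the early *C. elegans* embryo. Their proteins carry a pair of bHLH domains each and act as repressors, in the manner of the Hairy and Enhancer of split proteins that Notch induces in flies, and they are also deployed in cells that receive no Notch signal. In the RefSeq annotation of assembly WBcel235, *ref-1* (T01E8.2) is on chromosome II between T01E8.1 and *plc-3*. On the same chromosome *hlh-26* (C17C3.8) is next to *hlh-25* (C17C3.7), and the single gene C17C3.11 separates *hlh-25* from *hlh-27* (C17C3.10). *hlh-28* (F31A3.2) and *hlh-29* (F31A3.4) are neighbors on chromosome X.

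The values are MAS5 signals, a linear measure of probe set brightness that the authors had scaled to a common trimmed mean of 500.2 to 500.3 on each array. A signal of 69.7 served as the reference level below which a probe set was regarded as dim (the 40th percentile of each array was found, and the median of these 12 values taken). The 18264 probe sets that exceeded it on 3 or more arrays were tested with limma, and a change was called at an adjusted p under 0.05 with a fold of at least 1.7. The *hlh-1* signal was 247.5 ± 87.1 (SD, n = 3) at 0 h, 3503 ± 631 at 2 h, 1357 ± 187 at 4 h and 1344 ± 424 at 6 h. All 9 body wall muscle markers examined were called higher at 4 and 6 h than at 0 h. Of these, *myo-3*, *unc-15*, *mup-2* and *tnt-3* passed the filter described above only through their 4 and 6 h arrays. Their rises are therefore no support for this count. Over all tested probe sets 17.1% and 21.7% were called higher at these times. *myo-3*, *unc-15* and *tnt-3* did not exceed the reference level in any 0 h array. With dim signals raised to that level, the rise of *myo-3* at 4 h was at least 1.05-fold. Replicate arrays correlated at 0.835 to 0.884 across tested probe sets, and median signals ran from 89.6 to 140.8, with the 6 h arrays at 112.4 to 140.8. The median log2 change over all tested probe sets was 0.11 at 2 h, 0.16 at 4 h and 0.31 at 6 h, and scaling the arrays to a common median brought the last of these to −0.05. These are whole embryos, in which fewer cells of a type and less RNA per cell cannot be told apart.

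All 4 family probe sets had their highest mean signal at 0 h, and the 4 passed the filter on dim signals. At 2 h, 3 of the 4 were called lower than at 0 h, against 9.55% of all tested probe sets, and none was called higher, against 15.5%. Among the 3 was *hlh-28/hlh-29*, which passed the filter only through its 0 h arrays, so that its fall is no support for the count. At 4 h, 1 of the 4 (*ref-1*) was called lower, against 11.9%, and at 6 h 1 (*hlh-25/hlh-27*), against 15.6%. None was called higher at 4 or 6 h, against 17.1% and 21.7%. The 12 changes from 0 h were all below 0, but they rest on the same 0 h arrays and are not 12 separate observations. Those of *hlh-28/hlh-29* also come from a probe set that passed the filter only through these arrays. A change over the course as a whole, tested with limma's F test, passed for *ref-1* (adjusted p = 2.9e-07) and *hlh-25/hlh-27* (adjusted p = 0.00197) but not for *hlh-28/hlh-29* (adjusted p = 0.0695) or *hlh-26* (adjusted p = 0.632), while 46.3% of tested probe sets passed.

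**Figure D1:**
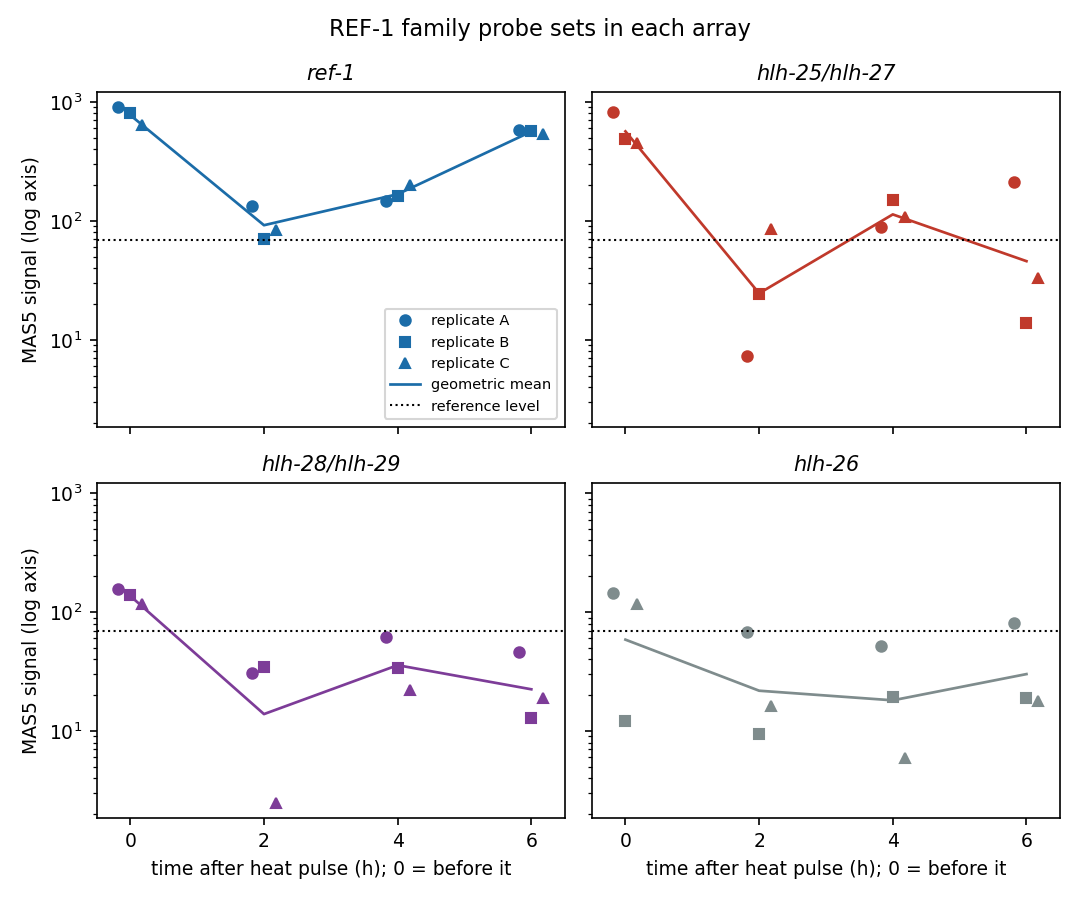
MAS5 signal (log axis) of the 4 REF-1 family probe sets against the time after the heat pulse in h, with 1 point for each of the 12 arrays (circle, square and triangle for replicates A, B and C), a line through the geometric means of the times and a dotted line at the reference level of 69.7. *ref-1* fell from 641 to 903 at 0 h to 70.2 to 132 at 2 h and stood at 538 to 586 at 6 h, whereas the later signals of *hlh-28/hlh-29* all lay under the dotted line.

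*ref-1*, the founding member, dipped and came back. Its signal at 0 h was 903.4, 803.7 and 640.6 in replicates A, B and C. At 2 h it was 132.4, 70.2 and 83.7, and at 4 h 146.2, 161.7 and 199.4. The 3 arrays at 2 h were the lowest of all 12, and those at 4 h came next, each above every 2 h array. At 6 h the signal was 585.5, 568.9 and 538.3, above every array at 2 and 4 h and below every array at 0 h. *ref-1* was above the reference level in all 12 arrays, although 1 of the 2 h arrays exceeded it by less than 1 unit.

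The means of *ref-1* were thus ordered 0 h (783 ± 133, SD, n = 3), 6 h (564 ± 23.9), 4 h (169 ± 27.4) and 2 h (95.4 ± 32.7). From 0 to 2 h the log2 change was −3.07 ± 0.34 (SE), a fall of 8.42-fold (adjusted p = 5.2e-07). At 4 h *ref-1* was still 4.62-fold lower than at 0 h (log2 change −2.21 ± 0.34, adjusted p = 2.6e-05). The step from 4 to 6 h was a 3.36-fold rise (log2 change 1.75 ± 0.34, adjusted p = 0.000723, against 7.73% of tested probe sets called higher and 8.39% lower), and from 2 to 6 h the rise was 6.13-fold (log2 change 2.62 ± 0.34, adjusted p = 3.0e-06, against 14.3%). Adjusted p values of single probe sets are from limma throughout, with Benjamini-Hochberg adjustment over all tested probe sets.

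The other neighbors in this order were not told apart by the test. *ref-1* at 4 h exceeded 2 h by 1.82-fold (log2 change 0.87, 95% interval 0.16 to 1.58, adjusted p = 0.0975, not called, against 6.9% called higher), and without replicate A of 2 h the change was 1.13 and passed (adjusted p = 0.0423). At 6 h it was 1.37-fold below 0 h (log2 change −0.46, 95% interval −1.17 to 0.25, adjusted p = 0.323). Relative to the median change of all tested probe sets, that last difference was −0.77. The arrays of both pairs of times did not overlap.

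The counts that follow describe how often a dip with the calls of *ref-1* was seen on the array. This form repeats the calls of *ref-1* itself, so that its membership was given in advance. Of 18264 tested probe sets 1246, or 6.82%, were called lower than 0 h at both 2 and 4 h, and 1076 of these (86.4%) were lower at 6 h too. Of the 1246, 132 (10.6%, or 0.723% of those tested) were higher at 6 h than at 4 h. In addition 88 of these probe sets (0.482% of those tested) were higher at 6 h than at 2 h. In 51 of them (0.279%) the 6 h signal was not called different from 0 h. *ref-1* was among these 51. It was lower at 2 and 4 h and higher at 6 h than at both under each of 22 alternative settings, while the array-wide count of 88 ran from 59 to 117.

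The probe set shared by *hlh-25* and *hlh-27*, both targets of the embryonic Notch interactions, fell at 2 h and was still lower at 6 h. Its signal at 0 h was 816.8, 490.1 and 452.9 in replicates A, B and C. At 2 h it was 7.3, 24.1 and 84.7, so that 2 of the 3 arrays were below the reference level. At 4 h it was 89.5, 149.8 and 108.7, all above that level and above every 2 h array. At 6 h it was 211.5, 13.9 and 32.8, and the highest of these was higher than every 4 h array while the others were lower than every 4 h array.

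The fall of *hlh-25/hlh-27* from 0 to 2 h was called (log2 change −4.52 ± 0.93, SE, adjusted p = 0.000782). Signals of the dimmer group that did not exceed the reference level were raised to it before a fold was taken, which makes the fold a lower bound, here at least 7.61-fold. All folds, bounds included, are ratios of geometric means (means of log2 signals), and a bound can therefore exceed the ratio of the arithmetic means printed beside it. At 6 h it was at least 5.61-fold lower than at 0 h (log2 change −3.63 ± 0.93, adjusted p = 0.00343). Both calls held without any single array, with changes from −5.42 (no replicate C of 2 h) to −3.65 (no replicate A of 2 h) at 2 h and from −4.73 (no replicate A of 6 h) to −2.76 (no replicate B of 6 h) at 6 h. At 4 h it was 4.99-fold lower, with no overlap of the arrays, and was not called (log2 change −2.32, 95% interval −4.26 to −0.38, adjusted p = 0.0658). This last call depended on the fit, since the change passed when only the 0 and 4 h arrays were used (adjusted p = 9.5e-05), when signals were raised to the reference level or offset by 16 units, and without replicate A of 2 h (adjusted p = 0.0368), replicate A of 6 h (0.0363) or replicate B of 6 h (0.0383). Differences among the later times were not called (adjusted p = 0.129 for 4 h against 2 h, 0.406 for 6 h against 4 h and 0.529 for 6 h against 2 h). Without replicate C of 2 h the rise to 4 h passed (log2 change 3.10, adjusted p = 0.0404), and without replicate A of 6 h the difference of 6 h from 2 h changed sign, to −0.20.

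The probe set of *hlh-28* and *hlh-29*, the neighboring pair on chromosome X, was dim. Its signal was 157.2, 138.1 and 117.5 at 0 h. It was 31, 34.5 and 2.5 at 2 h, 61.7, 33.7 and 22 at 4 h and 45.8, 12.9 and 19.1 at 6 h. Every 0 h array was above the reference level and none of the 9 later arrays was, so that the probe set entered the test only through the group in which it was high. From 0 to 2 h the change was called lower (log2 change −3.30 ± 1.07, SE, adjusted p = 0.0256), with a fold of at least 1.96. The call was lost without replicate A, B or C of 0 h (adjusted p = 0.0745, 0.0659 and 0.0568) and without replicate C of 2 h, the array with the signal of 2.5 (log2 change −2.06, adjusted p = 0.163). At 4 h (log2 change −1.93, adjusted p = 0.197) and 6 h (−2.61, adjusted p = 0.0609) the probe set was not called, although the arrays did not overlap with those of 0 h and the bound was at least 1.96-fold at both times. Later differences had adjusted p values of 0.485, 0.753 and 0.689 and compared signals that were all below the reference level.

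For *hlh-26*, which lies beside *hlh-25*, no change was called. Its signal was 143.5, 12.1 and 116.2 at 0 h, 67.8, 9.4 and 16.3 at 2 h, 52.2, 19.3 and 5.9 at 4 h, and 81.1, 18.9 and 17.8 at 6 h. The arrays of all times overlapped, since replicate B of 0 h was lower than most later arrays. Replicate A had the highest signal of its time at each of the 4 times. Only 3 of the 12 arrays were above the reference level, 2 at 0 h and 1 at 6 h. The log2 change was −1.43 at 2 h (95% interval −3.97 to 1.12, adjusted p = 0.452), −1.70 at 4 h (−4.24 to 0.85, adjusted p = 0.342) and −0.96 at 6 h (−3.51 to 1.59, adjusted p = 0.590). Without single arrays these changes ran from −2.57 (no replicate B of 0 h) to −0.78 at 2 h, from −2.83 (the same array) to −0.89 at 4 h and from −2.10 (the same array) to −0.32 at 6 h, and none was called. These intervals include falls as large as those of *ref-1*, so a fall of that size is not excluded for *hlh-26*.

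**Figure D2:**
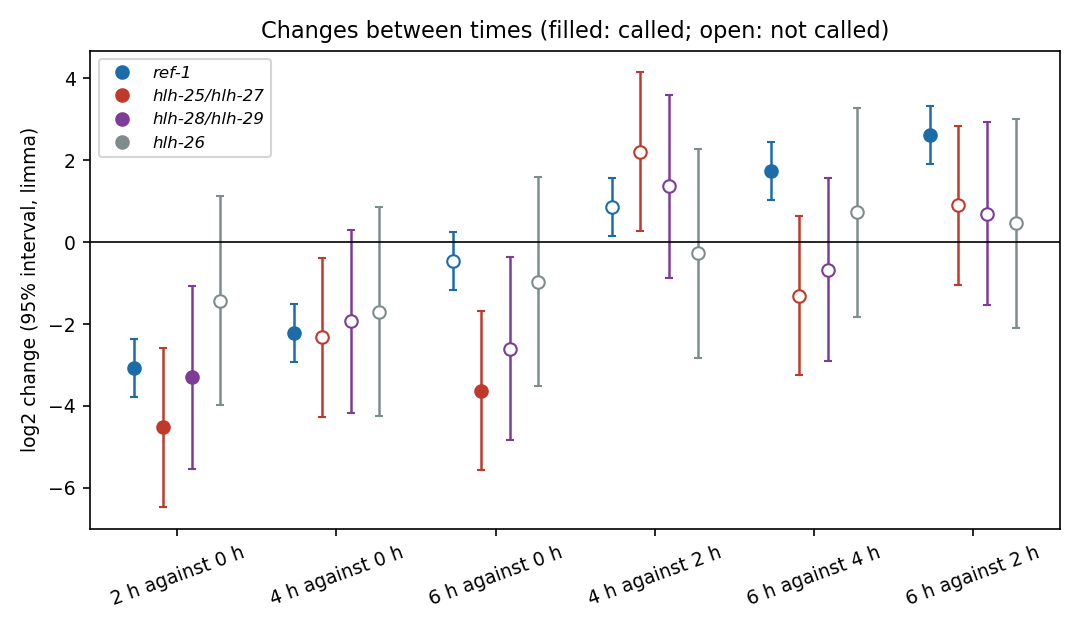
Log2 change between pairs of times (vertical axis) for the 4 REF-1 family probe sets, with the 95% interval from limma and filled points where the change was called. At 2 h against 0 h the interval runs from −3.78 to −2.37 for *ref-1* and from −3.97 to 1.12 for *hlh-26*, and *ref-1* is the only one of the 4 with filled points above 0, at 6 h against 4 h and 6 h against 2 h.

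The dim members were measured with less precision, which limits how far the courses can be set against each other. The SE of a log2 change was 0.34 for *ref-1*, 0.93 for *hlh-25/hlh-27*, 1.07 for *hlh-28/hlh-29* and 1.22 for *hlh-26*. Whether *ref-1* rose relative to its relatives after the dip was examined as the log2 ratio of their signals within an array, at 6 h (n = 3) against 2 and 4 h together (n = 6), a comparison chosen after the values were seen. The ratio of *ref-1* over *hlh-25/hlh-27* was higher at 6 h by 2.39 (exact two-sided permutation p = 0.0833, or 0.125 adjusted over the 3 members tried), where the smallest p that the 84 arrangements allow is 0.0119. With dim signals of *hlh-25/hlh-27* raised to the reference level the difference was 2.05 (p = 0.0119 by the same permutation test, also 0.0119 adjusted). The outcome thus depended on how dim signals were treated. The ratios over *hlh-28/hlh-29* and *hlh-26* are not given, because none and 1 of the 9 later arrays of these probe sets were above the reference level.

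Across the 12 arrays the log2 signal of *ref-1* correlated at 0.52 with *hlh-25/hlh-27*, at 0.55 with *hlh-28/hlh-29* and at 0.40 with *hlh-26*. The remaining pairs gave 0.57 for *hlh-25/hlh-27* with *hlh-28/hlh-29*, 0.48 for *hlh-26* with *hlh-28/hlh-29* and 0.31 for *hlh-26* with *hlh-25/hlh-27*. All 4 probe sets share the high 0 h group. After the mean of each time was removed the coefficients ran from −0.25 to 0.37.

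The 5 single-gene probe sets whose log2 signal followed *ref-1* most closely over the 12 arrays were those of *sip-1* (Pearson r = 0.977), *spp-1* (0.975), *add-2* (0.973), R12C12.5 (0.973) and Y62E10A.13 (0.972). *sip-1*, a small heat shock protein gene, had mean signals of 55424 at 0 h, 804 at 2 h, 1249 at 4 h and 24102 at 6 h. *spp-1*, which encodes a saposin-like protein, was at 337, 14.9, 27.7 and 211, and *add-2*, which encodes adducin, at 2200, 23.8, 94.4 and 515. All 5 had their lowest mean at 2 h and their second highest at 6 h, as *ref-1* had. These genes were picked from the whole array for likeness over 4 groups of arrays, so the coefficients are a description.

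**Figure D3:**
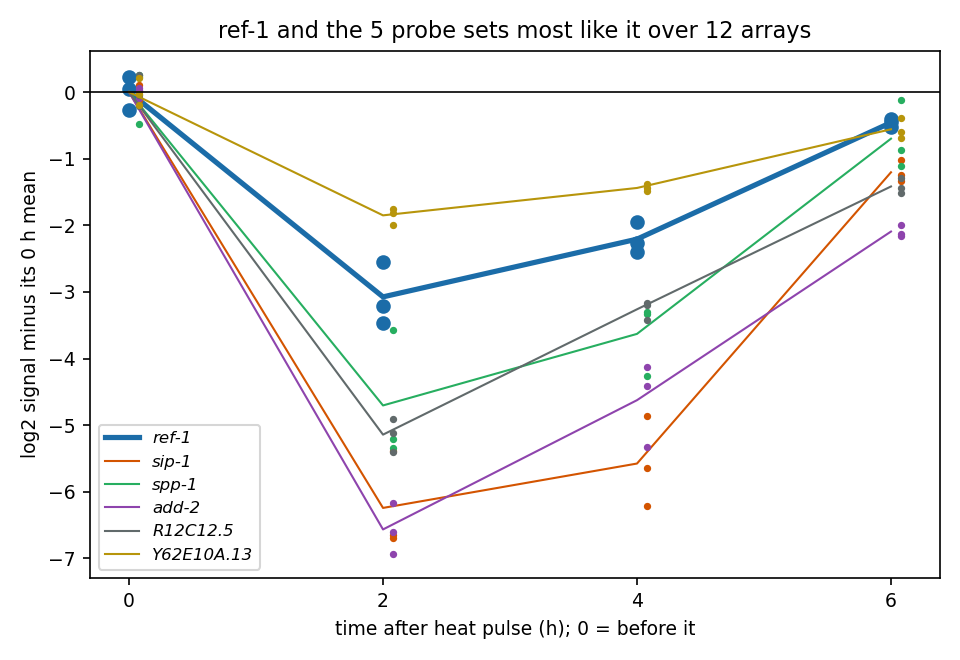
Log2 signal minus the 0 h mean of the same probe set (vertical axis) against time after the heat pulse in h, for *ref-1* (thick blue line, large points) and the 5 probe sets with the highest correlation to it, with 1 point per array and lines through the means of 3 arrays. All 6 probe sets are lowest at 2 h, Y62E10A.13 falls least, and *ref-1* and Y62E10A.13 end closest to their 0 h level together with *spp-1*.

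The probe sets most like *hlh-25/hlh-27* were those of *cerk-1* (ceramide kinase, r = 0.953), *arf-5* (an ADP-ribosylation factor, 0.917), the proteasome subunit genes *pas-6* (0.917) and *pbs-5* (0.915), and *plin-1* (perilipin, 0.913). *cerk-1* had mean signals of 1564, 458, 678 and 449 at 0, 2, 4 and 6 h. For *hlh-28/hlh-29* they were *sdz-36*, 1 of the genes named for SKN-1 dependent zygotic transcripts (0.930), C31H2.4 (0.917), ZK507.1 (0.912), C36A4.10 (0.909) and R13H7.2 (0.906), and *sdz-36* fell from a mean of 1095 at 0 h to 118.6, 107 and 127. For *hlh-26* the leading genes were *srx-120* (0.861), *col-177* (0.823), *nmur-2* (0.817), *irld-11* (0.813) and *arrd-28* (0.790), and the mean signals of *srx-120* were all below the reference level.

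Some of the tested genes beside the family members were dim at 0 h, which left little room for a fall. Every 0 h signal of *plc-3* (8.5 to 24) and of F31A3.3 (8.9 to 54.5) was below the reference level. The absence of lower calls among the neighbors is therefore not read as a result. Of 7 neighboring genes in the RefSeq annotation 6 had a probe set and 5 were tested, and 3 of these were called higher than 0 h at some time and 0 lower by limma (0 lower at an unadjusted p under 0.05), while 28.9% and 20.5% of all tested probe sets were called higher and lower at 1 or more of these times. T01E8.1, beside *ref-1*, had signals of 86.3, 143.2 and 73.2 at 0 h and of 369.5, 398.3 and 460 at 2 h. At 4 h it was at 1765.2, 2044.3 and 3149.8 and at 6 h at 1332.1, 1162.7 and 1243.6, with no overlap between 0 h and any later time. It was 4.21-fold higher at 2 h (adjusted p = 1.0e-05), 23.2-fold at 4 h (adjusted p = 7.6e-11) and 12.9-fold at 6 h (adjusted p = 1.2e-09), while *ref-1* was lower at 2 and 4 h. *plc-3*, the phospholipase C gene on the other side of *ref-1*, was at least 1.76-fold higher at 4 h (adjusted p = 0.0178) and at least 1.21-fold at 6 h (adjusted p = 0.0429), and both calls were lost when signals were raised to the reference level. The 4 h call was also lost without replicate C of 0 h (adjusted p = 0.0662) or replicate B of 4 h (0.0947), and the 6 h call in 6 of the 12 fits that left out an array. F31A3.5, beside *hlh-28*, was 2.52-fold higher at 4 h (adjusted p = 0.00359) and 2.69-fold at 6 h (adjusted p = 0.00155).

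Of the 34 genes listed for the Notch pathway upstream of the family, 33 had a probe set and 29 were tested. At 2 h 2 were called higher and 5 lower than at 0 h (6.90% and 17.2% of those tested), at 4 h 3 and 4, and at 6 h 3 and 3, and the rest did not pass. The lower genes at 2 and 4 h included *glp-1*, which would not have passed the filter without its 0 h arrays. Its fall is therefore no support for these counts. Over all tested probe sets 15.5% were higher and 9.55% lower at 2 h, 17.1% and 11.9% at 4 h and 21.7% and 15.6% at 6 h. The median log2 change of these genes was −0.40, −0.02 and −0.29 at 2, 4 and 6 h, beside 0.11, 0.16 and 0.31 over all tested probe sets.

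The receptor gene *glp-1*, which acts in the early blastomeres, had signals of 223, 146.2 and 198.6 at 0 h, of 11.3, 22.7 and 6.7 at 2 h and of 15.8, 10.1 and 37.4 at 4 h. At 6 h it was at 82.3, 87.6 and 22.1, so that 2 of 3 arrays were above the reference level again, though below every 0 h array. It was at least 2.67-fold lower than 0 h at 2 h (log2 change −3.96, adjusted p = 0.00326) and at 4 h (−3.36, adjusted p = 0.00956), and was not called at 6 h (−1.78, adjusted p = 0.158), though it was with signals raised to the reference level (−1.23, adjusted p = 0.00152). The other receptor gene, *lin-12*, had means of 333, 224, 189 and 158 and was not called at any time.

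Among the ligand genes 11 of 15 were tested, and the changes ran in both directions. *dsl-1* and *dsl-2*, which encode DSL family ligands, fell at all 3 times. *dsl-1* had a mean of 41200 ± 2713 (SD, n = 3) at 0 h and was 44.2-fold lower at 2 h (adjusted p = 0.0149), at least 590.2-fold at 4 h and at least 441-fold at 6 h. The call at 2 h was lost without replicate C of 2 h (adjusted p = 0.0554). *dsl-2* had a mean of 73872 at 0 h and was 9.04-fold lower at 2 h, 199-fold at 4 h and at least 838-fold at 6 h. *dsl-6*, with signals of 772, 58.4 and 136.9 at 0 h of which 1 was below the reference level, instead was at least 7.04-fold higher at 4 h (adjusted p = 0.0131) and at least 12.7-fold at 6 h (adjusted p = 0.00217). *dsl-3* was 6.61-fold higher at 4 h (adjusted p = 0.0152), from signals of 256.3 to 1108.1 at 0 h to signals of 2500.8 to 4791.4. At 2 h *dsl-3* was called higher only without replicate C of 0 h (log2 change 2.16, adjusted p = 0.0366) or replicate C of 2 h (2.27, adjusted p = 0.0157). Its 4 h call was lost without replicate A or B of 0 h or replicate B of 4 h, and that of *dsl-6* without replicate C of 0 h and with only the 0 and 4 h arrays. *osm-11*, which encodes a secreted co-ligand and was picked out after its values were seen, was at least 2.64-fold lower at 2 h (adjusted p = 0.0207). The blastomere ligand gene *apx-1* (log2 change 0.03, 1.06 and 0.77) and *lag-2* (−1.86, −0.97 and −1.66) were not called.

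The 8 genes listed under receptor cleavage were all tested. *aph-1*, which encodes a γ-secretase subunit, was 5.39-fold higher at 2 h (signals of 684 to 910 against 112 to 162), 2.25-fold at 4 h and 2.04-fold at 6 h, and the 6 h call was lost with median scaling, with quantile normalization, with only the 0 and 6 h arrays and without replicate C of 0 h. *pen-2*, another subunit gene, was 2.00-fold higher at 2 h (adjusted p = 0.000169). The presenilin gene *hop-1* was lower at all 3 times, by 2.42-fold (adjusted p = 0.0462), 2.39-fold (adjusted p = 0.0444) and at least 3.60-fold (adjusted p = 0.00258, with 1 of 3 arrays below the reference level at 6 h), and its calls at 2 and 4 h were lost in 9 and 8 of the 12 fits that left out an array. Another presenilin gene, *sel-12*, was not called. *spe-4*, whose part in cutting the receptor was not tested, was not called against 0 h either (log2 change 2.47 at 2 h, adjusted p = 0.0612).

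Of the nuclear complex and modulators, *lag-1*, which encodes the DNA-binding partner, had means of 481, 631, 458 and 373 at 0, 2, 4 and 6 h and was not called at any time. *sel-8* was below the reference level in every array and was not tested. *sel-5* was 2.59-fold higher at 6 h at its brightest probe set (adjusted p = 0.00259), but its other 3 probe sets were not called at 6 h. The Groucho-type corepressors of *C. elegans* are encoded by *unc-37* and *lsy-22*, which moved apart. *unc-37* was 3.15-fold lower at 4 h and 3.59-fold lower at 6 h than at 0 h, and its other 2 probe sets were lower at both times as well. *lsy-22* was 3.87-fold higher at 2 h and 2.26-fold at 4 h, with log2 change 0.11 at 6 h (−0.25 with median scaling, not called in either), and its second probe set was not called at any of these times.

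**Figure D4:**
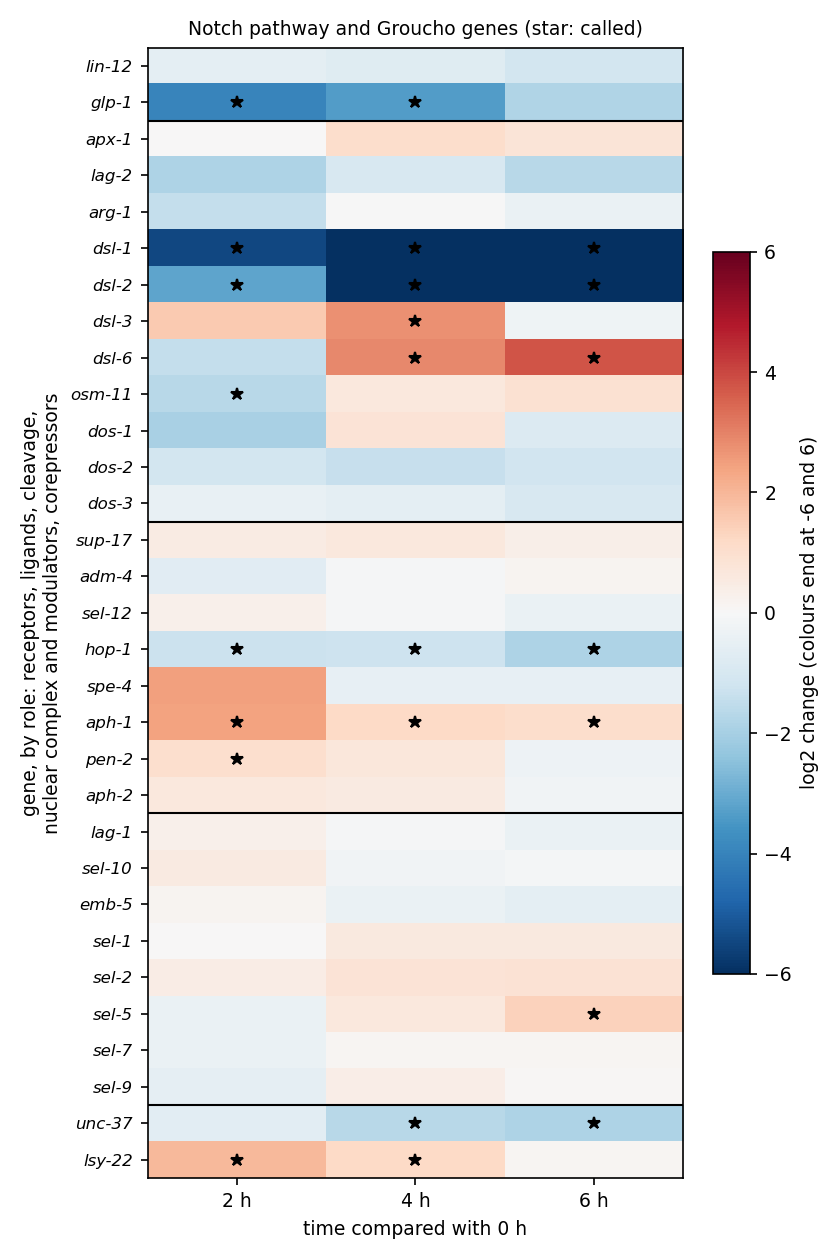
Log2 change at 2, 4 and 6 h against 0 h (color, with the scale ending at −6 and 6) for the 29 tested Notch pathway genes and the 2 Groucho corepressor genes, grouped by role, with a star where the change was called. The darkest fields are the falls of *dsl-1* and *dsl-2*, and no gene of the nuclear complex and modulators other than *sel-5* has a star.

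The early embryo fate genes, which include genes acting in the lineages patterned by Notch, were called lower more often than higher. Of 13 tested, 7, 6 and 7 were called lower than at 0 h at 2, 4 and 6 h, with median log2 changes of −1.77, −1.88 and −2.53, while 9.55%, 11.9% and 15.6% of all tested probe sets were lower. One gene lower at each time, *tbx-37*, passed the filter only through its 0 h arrays, so that its fall is no support for these counts. *tbx-37* and *tbx-38*, T-box genes of the anterior AB lineage that Notch signaling keeps off in the posterior one, had signals of 498.5 to 653.2 and of 1048.3 to 1741.4 at 0 h. They were at least 8.30-fold and at least 18.7-fold lower at 2 h and at least 7.78-fold and at least 15.4-fold lower at 6 h, when *ref-1* was not called different from 0 h. *end-1*, an endoderm GATA factor gene, was at 29306 ± 3957 (SD, n = 3) at 0 h and 205-fold lower at 2 h, and *ceh-51*, a homeobox gene of the MS lineage, was at 19213 ± 2914 and 38.8-fold lower at 2 h. Signals of these zygotic genes were thus far above the reference level in the samples labeled 0 h, and how far the 0 h embryos had developed was not tested. The single member called higher at 2 h, *skn-1*, lost its call in 8 of the 12 fits that left out an array.

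Of 35 other bHLH genes 32 were tested, with 10, 16 and 16 called higher and 6, 6 and 7 lower at 2, 4 and 6 h. The higher genes at each time included *hlh-1*, which the heat shock promoter drives, so that its rise is no support for these counts. Higher genes that were dim at 0 h, such as *hlh-8* and *hlh-10*, passed the filter only through later arrays, and their rises are no support either. Among the lower genes at each time was *ahr-1*, which passed the filter only through its 0 h arrays, so that its fall is no support for these counts. More probe sets were called higher than lower over the array as well (15.5%, 17.1% and 21.7% against 9.55%, 11.9% and 15.6%). The largest changes were those of *hlh-12* (at least 341-fold, 489-fold and 98.9-fold higher, with 2 of 3 arrays below the reference level at 0 h), *hlh-10* (at least 3.33-fold, 78.4-fold and 81.4-fold higher), the myogenic gene *hnd-1* (10.6-fold, 25.9-fold and 83.5-fold lower) and the neurogenin gene *ngn-1* (at least 47.6-fold, 17.3-fold and at least 61.6-fold lower). Each of these 4, picked for the size of their called changes, was called at all 3 times in the same direction. Other members of the list were not called throughout. *cnd-1* was called lower at 2 h only, and *mxl-2* was called higher at 2 and 4 h but, as with *ref-1*, was not called at 6 h. Of 4 genes that the activity of *ref-1* is tied to in larval epidermal cells 3 were tested, and the Hox gene *mab-5* alone was called, at least 2.65-fold higher at 4 h (adjusted p = 0.0377). That call was lost without replicate A or C of 0 h or replicate A or C of 4 h (adjusted p = 0.0720 to 0.181) and without trend and robust estimation. A second probe set of *mab-5* was also called higher at 4 h (log2 change 2.61, adjusted p = 0.0352) and at 6 h (3.10, adjusted p = 0.00982). Of the markers examined for other tissues, 2 of 6 tested intestinal, 2 of 8 epidermal, 2 of 8 neuronal and 2 of 5 pharyngeal muscle markers were called higher at 6 h, against 21.7% of all tested probe sets, and 0, 1, 1 and 1 were called lower, against 15.6%. The lower ones were *elt-1* (epidermis, log2 change −3.92, at least 8.24-fold), *unc-30* (neurons, −7.11, at least 43.4-fold) and *tni-4* (pharyngeal muscle, −3.86, at least 3.95-fold). *tni-4* was below the reference level in every later array and passed the filter only through its 0 h arrays, so that its fall is no support for the count. Likewise *asp-1* (intestine) and *ceh-22* (pharyngeal muscle), both called higher at 6 h, passed it only through their 4 and 6 h arrays. The marker lists were not compared with a test, and their part in the family's signals was not tested.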

How the data were processed

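Per the labels and the authors' methods, about 80 embryos were pooled for each sample, the RNA was amplified with 20 PCR cycles before labeling, and each of the 12 samples was hybridized to 1 Affymetrix *C. elegans* array. The deposited values are MAS5 signal intensities on a linear scale, which the authors scaled between arrays with Affymetrix MAS 5.0. The trimmed mean with 2% taken off each end was 500.2 to 500.3 on every array. The MAS 5.0 settings and a genome build are not given in the sources used here, and no coordinates are reported. How amplification and MAS 5.0 affected low signals was not tested, and the number of arrays limits the precision of every value.

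Signals were converted to log2 and not normalized further. Of 22625 probe sets 77 controls were left out, and of the other 22548 the annotation gave 1 gene for 20766, several for 887 and none for 895. limma 3.58.1 in R 4.3.3 was fitted to all 12 arrays with 4 time groups, lmFit and eBayes with trend and robust estimation, 6 contrasts and Benjamini-Hochberg adjustment over the 18264 tested probe sets. The fit was tested on simulated data. Same-lettered replicates did not deviate together (correlations of −0.0258 to 0.0332 over 18 pairs), so the letters were not used as a block.

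All probe sets annotated to the 6 family genes were named. For each, the 5 single-gene probe sets with the highest Pearson correlation of log2 signal over the 12 arrays were named as a description. In lists of up to 10 tested genes every member called against 0 h was named, and in longer lists the 4 called members with the largest log2 change. A gene was read at its brightest probe set. The members, lists and tests were chosen with earlier results of these data known. Alternatives were other scalings, offsets, filters, variance models, sets of arrays, a replicate block and leaving out each array. Gene names and neighbors are from the platform annotation and RefSeq (WBcel235).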

Additional observations from a re-analysis of the deposited data

How the results depend on the processing

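Of 500 changes of the family probe sets recomputed under the alternatives 472 kept their direction and call, among them 131 of 132 for *ref-1*, with 0 of these reversed. The 0 h to 4 h change of *hlh-25/hlh-27* became a call with an offset of 16 (−2.17), with dim signals set to the reference level (−2.32) and with only the arrays of the compared times (−2.32), and ran from −2.52 to −2.06 when arrays were left out in turn. For *hlh-28/hlh-29* the 4 h change became a call with raised signals (−0.97), and the 6 h change did so with median scaling (−2.97), quantile normalization (−2.98), the offset (−1.94), raised signals (−0.97), no trend or robust estimation (−2.61) and only the compared arrays (−2.61). Without single arrays its changes ran from −3.96 to −2.06 at 2 h, from −3.12 to −2.21 at 6 h and from −0.54 to 1.35 between 2 and 6 h. In the same fits the 4 h against 2 h change ran from 0.67 to 1.13 for *ref-1*, from 1.33 to 3.10 for *hlh-25/hlh-27* and from −1.03 to 0.55 for *hlh-26*, that of 6 h against 4 h from −0.076 to 1.5 for *hlh-26*, and that of 6 h against 2 h from −0.25 to 1.28 for *hlh-26* and from −0.20 to 1.79 for *hlh-25/hlh-27*. The *mab-5* change at 2 h ran from −0.34 to 1.23 (−0.086 with raised signals) and that of *dsl-3* at 6 h from −0.71 to 0.35, and the *lsy-22* change at 6 h was −0.25 with median scaling. Notch pathway genes called lower at 2 h numbered 3 without trend or robust estimation and 2 to 5 without single arrays, and at 6 h 5 with median scaling. Early embryo fate genes called higher at 2 h numbered 0 to 1 without single arrays. The cause of these shifts was not tested. With the replicate block the *ref-1* change at 2 h stayed at −3.07 (adjusted p = 2.3e-06, limma), and of 124 results 3 changed their call, *hop-1* at 2 and 4 h (adjusted p = 0.0610 and 0.0584) and *plc-3* at 6 h (0.0544). The filters at 6 arrays and at the 60th percentile left 2 of the 4 family probe sets tested, and where all values sat at the raised level no value was given. Signal over background limits the dim members, and the arrays without a heat-only course limit what any change can be tied to.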
